A study of Homo sapiens with 18 samples.

Results

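All-trans retinoic acid (ATRA) for 72 h was set against no treatment in NB4 cells labelled TG2 knockout, with 3 arrays a group, or 6 of the study's 18 arrays. The arrays were chosen by their titles alone. NB4 is an established human acute promyelocytic leukaemia line, here obtained from a cell bank and kept in serum-containing RPMI medium. TG2 is transglutaminase 2, the protein product of TGM2. The untreated group was the line labelled TG2 knockout without ATRA, and the treated group was the same line after 72 h with 1 µM ATRA. The remaining arrays were the same line at 48 h and wild-type NB4, untreated and at 48 h and 72 h. Total RNA was labelled as single-stranded cDNA by a whole-transcript kit and read on an Affymetrix array with 33297 probe sets. The 3 arrays of a group are labelled as biological replicates, with nothing further on how the cultures were kept apart. The p-values thus measure the spread between arrays within groups, pooled over all 18 arrays of the study. The labels do not say how the TG2 knockout line was made, or whether it is 1 clone, and the sample codes of these arrays carry the letters KD.

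Acute promyelocytic leukaemia cells carry the PML-RARA fusion, a retinoic acid receptor that holds promyelocytes in an immature state. ATRA at pharmacological dose releases that block, and NB4 cells then take on features of neutrophils and stop dividing. TGM2 is among the genes that ATRA raises most in these cells, and its protein crosslinks other proteins through glutamine and lysine residues. The comparison asks what the ATRA programme looks like at 72 h in a line labelled as lacking that protein.

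TGM2 transcript rose in the line labelled TG2 knockout. Its log2 signal was 6.30, 6.51 and 6.36 in the untreated arrays and 11.61, 10.87 and 11.25 at 72 h. The treated arrays lay far above the untreated ones, with no overlap. The change was 4.85 ± 0.19 (SE) on the log2 scale, a 28.9-fold rise (adjusted p = 5.95e-11, limma with Benjamini-Hochberg adjustment over all probe sets, as for every adjusted p below). The value after ± is the SE for a change and the SD for a level. Wild-type NB4 started at 6.43 ± 0.17 (SD, n = 3) and reached 12.37 ± 0.18 at 72 h, while the line labelled knockout started at 6.39 ± 0.11 and reached 11.24 ± 0.37. The untreated levels of the lines were thus close, and the treated level was lower in the line labelled knockout. The difference in response, knockout minus wild type, was -1.09 ± 0.27 (unadjusted p = 0.000833) and did not pass adjustment (adjusted p = 0.98). TGM2 transcript therefore goes against the label if knockout is read as loss of the transcript. These arrays do not read the protein, and the part of the transcript that the probe set reads, relative to any lesion, is not given here. Directions below are those of the arrays labelled TG2 knockout.

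Of the other 8 transglutaminase family members, TGM3, the epidermal-type enzyme, was the only one called. TGM3 read 5.48, 5.42 and 5.44 in the untreated arrays and 6.94, 6.73 and 6.64 at 72 h. Its treated arrays all lay above the untreated ones, with a change of 1.32 ± 0.14 (adjusted p = 2.47e-06). Keratinocyte transglutaminase TGM1, the plasma factor subunit F13A1 and the red cell homologue EPB42 had changes of -0.22, -0.19 and 0.15, none of which passed the test.

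The response covered a large share of the array. At an adjusted p under 0.05, 13996 of 33297 probe sets were called (42%), 7594 higher (22.8%) and 6402 lower (19.2%). Probe sets annotated to 1 gene were then used to give each of 18417 genes 1 value, its brightest probe set. Among these genes 3355 were higher at 72 h (18.2%) and 4319 lower (23.5%). Changes of at least 2-fold were more often falls: 456 genes rose that far (2.48%) and 1458 fell (7.92%). All treated arrays lay above all untreated arrays for 5421 genes (29.4%) and below them for 5452 genes (29.6%). These percentages are the background for the counts of each gene group below, and the median change over the 18417 genes was 0.07.

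The following properties of the arrays touch every count. The deposited values of the treated arrays were narrower: the SD over probe sets was 2.12 to 2.21 at 72 h against 2.40 in each untreated array. With the genes split by mean level into 10 equal bins, dim genes were more often called higher and bright genes more often lower: in bin 1, the dimmest, 35.5% were higher and 1.03% lower, while in bin 9 12.2% were higher and 46% lower. After quantile normalization, which gives all arrays 1 distribution, bin 1 had 5.8% higher and 2.77% lower, and bin 9 had 22.5% and 29.4%. In bin 10, 15.2% were higher and 44.8% lower as deposited, and 25.4% and 32.8% after quantile normalization. In bin 8 the shares were 14.5% and 42.1%, then 22.2% and 26.6%. Over all 18417 genes, 2788 were higher and 3292 lower after quantile normalization, the background for counts under that scaling. Counts for gene groups whose median member lay in bin 9 or 10 are given below under both scalings, and the part of this narrowing in them was not tested. The treated arrays varied more than the untreated ones, with a median SD over probe sets of 0.226 against 0.0985. Replicate 2 at 72 h stood nearer the untreated arrays: 446 genes were at least 2-fold above the untreated mean in it and 1205 below, against 888 and 1843 in replicate 1 and 600 and 1632 in replicate 3. Leaving replicate 2 out gave 566 genes called at least 2-fold higher and 1676 lower.

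**Figure D1:**
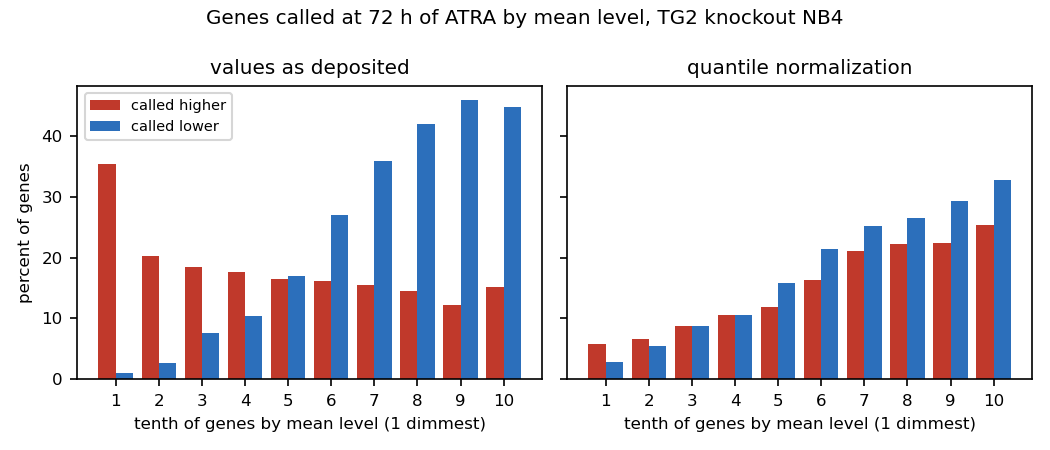
Percent of genes called higher (red) or lower (blue) at 72 h, y axis, in 10 equal bins of the 18417 genes by mean log2 signal, x axis, with the values as deposited (left) and after quantile normalization (right). With the deposited values bin 1 is more often called higher (35.5%) and bin 9 more often lower (46%), and the contrast is much smaller on the right.

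The 12 genes that rose most and the 12 that fell most were picked among called genes whose treated and untreated arrays did not overlap. Their lack of overlap was thus fixed by the choice. Those that rose had varied roles. BPI, the bactericidal granule protein that binds endotoxin, read 5.23, 4.87 and 5.13 in the untreated arrays and 10.30, 9.83 and 10.61 at 72 h, a change of 5.17 ± 0.33 or 36-fold (adjusted p = 1.77e-08). ALOX5AP, the membrane protein that presents arachidonic acid to 5-lipoxygenase, read 7.29, 7.12 and 7.07 in the untreated arrays and 11.86, 11.45 and 11.62 at 72 h, a change of 4.48 ± 0.18. FGR, a Src-family kinase of mature myeloid cells, read 6.56, 6.38 and 6.32 in the untreated arrays and 10.94, 10.37 and 10.68 at 72 h, a change of 4.24 ± 0.18. In all of these genes the lowest treated array was more than 8-fold above the highest untreated array. PADI2, which converts arginine residues to citrulline, read 6.70, 6.65 and 6.44 in the untreated arrays and 10.78, 9.94 and 10.64 at 72 h, a change of 3.86 ± 0.25. DHRS3, a retinaldehyde reductase, read 6.33, 6.50 and 6.36 in the untreated arrays and 10.25, 9.82 and 9.98 at 72 h, a change of 3.62 ± 0.19. PRAM1, an adaptor first described as a target of PML-RARA, read 7.96, 7.78 and 7.62 in the untreated arrays and 11.19, 10.85 and 11.03 at 72 h, a change of 3.24 ± 0.13. The 3 treated arrays lay close together for PRAM1 and DHRS3, whereas replicate 2 lay apart, below the others, for PADI2.

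LAMB3, the beta chain of laminin-332, was more uneven, at 5.97, 6.03 and 6.05 in the untreated arrays and 10.17, 8.40 and 9.84 at 72 h, a change of 3.45 ± 0.60 (adjusted p = 0.000269). ADGRG3, an adhesion G protein-coupled receptor of granulocytes, read 6.86, 6.97 and 6.74 in the untreated arrays and 10.55, 9.38 and 10.43 at 72 h, a change of 3.26 ± 0.38. S100A8, a subunit of calprotectin, read 5.11, 5.18 and 4.92 in the untreated arrays and 9.16, 7.50 and 8.18 at 72 h, a change of 3.21 ± 0.43. Replicate 2 was the lowest treated array for these genes. PSMB9, a catalytic subunit of the immunoproteasome, read 6.39, 6.32 and 6.15 in the untreated arrays and 9.52, 9.37 and 9.48 at 72 h, a change of 3.17 ± 0.13; its 3 probe sets hold identical values. CCL24, a chemokine for eosinophils, read 5.92, 6.0 and 5.84 in the untreated arrays and 8.99, 9.59 and 8.68 at 72 h, a change of 3.17 ± 0.22, and there replicate 2 was the highest. In all, 16 genes rose and 15 genes fell by at least 8-fold.

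The deepest fall was that of CYTL1, a small secreted protein of CD34+ cells, which read 11.49, 11.48 and 11.46 in the untreated arrays and 6.27, 6.41 and 6.87 at 72 h, a change of -4.96 ± 0.14 or 31.1-fold lower (adjusted p = 2.79e-12). EBF3, a transcription factor of the early B cell factor family, read 10.17, 10.19 and 10.15 in the untreated arrays and 6.51, 6.67 and 6.65 at 72 h, a change of -3.56 ± 0.15. VIM, the intermediate filament vimentin, read 10.80, 10.93 and 10.99 in the untreated arrays and 7.82, 6.53 and 7.80 at 72 h, a change of -3.52 ± 0.55 (adjusted p = 0.000106). The untreated arrays of CYTL1 and EBF3 agreed to within 0.1 log2 units, and for VIM replicate 2 was lower than the other treated arrays. LYZ, lysozyme, read 9.90, 9.76 and 9.72 in the untreated arrays and 6.63, 6.85 and 5.85 at 72 h, a change of -3.35 ± 0.25. NQO1, a quinone reductase, read 9.57, 9.56 and 9.36 in the untreated arrays and 5.85, 6.76 and 5.90 at 72 h, a change of -3.33 ± 0.26. HDC, which makes histamine, read 9.61, 9.63 and 9.57 in the untreated arrays and 6.16, 6.74 and 6.16 at 72 h, a change of -3.25 ± 0.22. The treated arrays of these genes lay far below the untreated ones, beyond the lack of overlap by which the genes were picked.

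PRG2, the eosinophil granule major basic protein, read 10.56, 10.53 and 10.50 in the untreated arrays and 6.94, 7.65 and 7.35 at 72 h, a change of -3.22 ± 0.20. MMP9, gelatinase B, read 9.72, 9.80 and 9.72 in the untreated arrays and 6.63, 6.28 and 6.71 at 72 h, a change of -3.21 ± 0.29. CYP1B1, a cytochrome P450 of the aryl hydrocarbon receptor pathway, read 9.64, 9.58 and 9.59 in the untreated arrays and 7.26, 6.36 and 6.07 at 72 h, a change of -3.04 ± 0.50 (adjusted p = 0.000181). The treated arrays of CYP1B1 were more spread than those of PRG2 and MMP9. MT2A, a metal-binding metallothionein, read 11.90, 11.96 and 11.96 in the untreated arrays and 8.65, 9.67 and 8.43 at 72 h, a change of -3.02 ± 0.35, and its other probe sets fell by 2.37 and 2.29. LHFPL6, a tetraspan membrane protein, fell by 3.39 and MAP7D3, a microtubule-associated protein, by 3.03, with treated values of 6.87, 6.32 and 6.10 and of 6.29, 6.25 and 6.56 against 9.90, 9.88 and 9.68 and 9.43, 9.42 and 9.34.

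**Figure D2:**
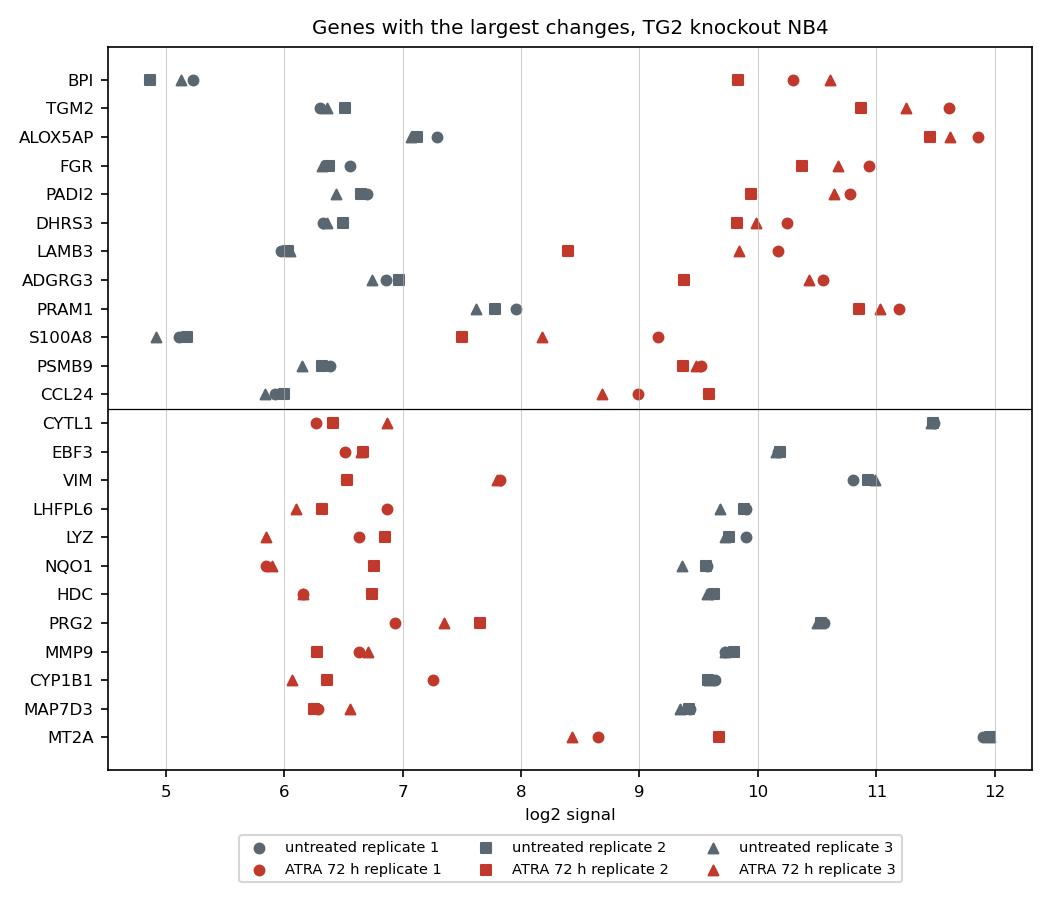
Log2 signal, x axis, in each of the 3 untreated (grey) and 3 treated (red) arrays of the line labelled TG2 knockout, for the 12 genes that rose most (above the line) and the 12 that fell most (below it), with marker shape for the replicate. The groups do not overlap because the genes were picked so. Replicate 2 at 72 h (squares) is the lowest treated array for most of the genes that rose, TGM2 among them at 10.87.

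Retinoic acid acts through RAR-RXR dimers, and cells answer it by raising enzymes that store or destroy it. Of 19 measured genes of retinoid receptors and metabolism, 6 rose and 3 fell, with a median change of 0.15. RARB, the receptor gene that is itself a retinoid target, read 4.33, 4.68 and 4.54 in the untreated arrays and 7.10, 5.79 and 6.53 at 72 h, a change of 1.96 ± 0.33 (adjusted p = 0.000239), and replicate 2 was the lowest treated array. The retinoic acid hydroxylases CYP26B1 and CYP26A1 rose by 1.06 and 0.74. The retinol dehydrogenases moved apart, with DHRS9 up by 0.90 and RDH10, which read 8.66, 8.74 and 8.56 in the untreated arrays and 6.56, 7.08 and 6.87 at 72 h, down by 1.82. RXRA, the dimer partner, fell by 1.59. RBP4, the retinol carrier, read 8.33, 8.17 and 8.14 in the untreated arrays and 4.79, 5.76 and 5.92 at 72 h, a change of -2.72 ± 0.25. RARG and RXRB had changes of 0.35 and -0.02, which did not pass the test.

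The RARB promoter is shown because it holds the best known retinoic acid response element, a direct repeat with 5 bases between its repeats. The letters searched were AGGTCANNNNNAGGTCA, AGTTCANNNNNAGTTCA and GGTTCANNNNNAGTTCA, plus the shorter-spaced repeat AGGTCANNAGGTCA, on both strands of the 250 bases before the first listed start of each gene (RefSeq, GRCh38.p14). Of 14239 measured genes with such a sequence, 1 (0.00702%) held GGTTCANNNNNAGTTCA, and it was RARB. That form has the letters of the RARB element itself, so its match there was fixed in advance and is no result of the search. The form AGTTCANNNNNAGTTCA was in 1 promoter and the forms built on AGGTCA in 0. The stretch runs from 40 bases before the match to the start (chr3:25428170-25428262, plus strand), with the match in capitals. It is a description of the letters and not evidence of binding.
RARB promoter: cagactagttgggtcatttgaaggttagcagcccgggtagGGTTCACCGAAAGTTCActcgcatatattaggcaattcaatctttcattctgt

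Genes known from acute promyelocytic leukaemia studies as ATRA-induced mostly rose here. Of 22 measured, 16 were higher (72.7% against 18.2% of all genes) and 1 lower, with a median change of 1.45, and the counts were the same after quantile normalization. ICAM1, an adhesion receptor for neutrophil integrins, read 8.34, 8.10 and 8.03 in the untreated arrays and 11.64, 10.46 and 11.64 at 72 h, a change of 3.09 ± 0.46. ASB2, an adaptor of a ubiquitin ligase, rose by 2.75, CD52, a small surface glycoprotein, by 2.50, TNFAIP2 by 2.15, and CD38, an NAD-consuming surface enzyme, by 1.87. CEBPE, the transcription factor of late granulocyte maturation, rose by 1.55, and UBA7, the enzyme that activates ISG15, by 1.38. TNFSF10, the death ligand TRAIL, went the other way and read 7.93, 7.82 and 7.73 in the untreated arrays and 5.64, 5.73 and 5.52 at 72 h, a change of -2.20 ± 0.16. PRKCD (-0.07) and ID2 (0.17) did not pass the test.

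Among 30 measured transcription factors of the myeloid lineage, 6 rose and 13 fell (43.3% against 23.5% of all genes), or 6 and 9 after quantile normalization. The median level of this group lay in bin 8 of the genes by level, where 42.1% of all genes were lower with the deposited values. The share that fell was thus near that of all genes at this level. IRF1, an activator of interferon and antigen presentation genes, read 7.31, 7.10 and 7.21 in the untreated arrays and 9.66, 9.51 and 9.47 at 72 h, a change of 2.34 ± 0.14. CEBPB, which drives granulocyte production on demand, read 8.04, 7.85 and 7.92 in the untreated arrays and 9.70, 9.36 and 9.51 at 72 h, a change of 1.59 ± 0.14. SPI1, the myeloid master factor PU.1, rose by 0.65. BCL11A, a repressor of early blood cells, read 9.11, 9.10 and 9.07 in the untreated arrays and 7.22, 6.82 and 7.43 at 72 h, a change of -1.94 ± 0.22, and ZEB2, another repressor, fell by 1.92 on its brighter probe set. MYB fell by 0.94, GATA2 by 0.73, RUNX1 by 0.69 and GFI1 by 0.59, whereas GFI1B rose by 1.11 and MEIS1 by 0.77. CEBPA (-0.31), LMO2 (-0.27), GATA1 (-0.06), HHEX (0.17), KLF6 (-0.22) and IRF8 (0.36) did not pass the test.

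MYC, the growth-promoting factor that ATRA lowers in these cells, read 11.44, 11.51 and 11.54 in the untreated arrays and 10.33, 10.96 and 10.89 at 72 h, a change of -0.77 ± 0.16 (adjusted p = 0.00153). All treated arrays lay below the untreated ones, by less than 2-fold on average. In the MYC-MAX network 4 of 11 measured genes fell (36.4%) and 0 rose, with a median of -0.15, or 4 and 1 after quantile normalization. The median level of the network also lay in bin 8, where 42.1% of all genes were lower with the deposited values. MGA, a repressor of the network, fell by 1.34, MAX, the dimer partner, by 0.98, and MLX by 0.72.

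Granule genes moved in both directions. Of 14 measured azurophil granule genes, made at the promyelocyte stage, 6 rose and 5 fell, the same counts as after quantile normalization. CTSG, cathepsin G, read 10.17, 10.24 and 10.29 in the untreated arrays and 7.0, 7.75 and 7.16 at 72 h, a change of -2.93 ± 0.19, and MS4A3, a membrane protein of granulocyte precursors, fell by 2.81. MPO, myeloperoxidase, fell only by 0.46, from 12.68 ± 0.01 to 12.22 ± 0.12 (SD). SERPINB1, the inhibitor of neutrophil elastase, read 7.62, 7.59 and 7.33 in the untreated arrays and 10.62, 9.96 and 10.43 at 72 h, a change of 2.82 ± 0.28, and DEFA4, a defensin, rose by 2.56. ELANE, neutrophil elastase, and PRTN3, proteinase 3, had changes of 0.14 and 0.20 that did not pass the test.

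Of 23 measured genes of the specific and gelatinase granules, made later in maturation, 7 rose and 4 fell, or 4 and 4 after quantile normalization. CRISP3, a specific granule glycoprotein, read 4.10, 4.50 and 4.25 in the untreated arrays and 7.08, 6.28 and 6.37 at 72 h, a change of 2.29 ± 0.51. CEACAM1 rose by 1.07 and MMP8, the neutrophil collagenase, by 0.98. SLPI, a protease inhibitor, read 8.43, 8.42 and 8.42 in the untreated arrays and 6.93, 6.99 and 6.44 at 72 h, a change of -1.64 ± 0.18. ORM1, an acute phase glycoprotein, rose by 1.39 (adjusted p = 0.016), with treated values of 6.45, 4.39 and 5.40; without 72 h replicate 1 that was 0.87 and no longer called (adjusted p = 0.0968), nor was it without untreated replicate 1 (adjusted p = 0.0578). The hallmark genes of these granules LTF (0.09), LCN2 (0.27), CAMP (0.40) and CEACAM8 (-0.09) did not pass the test.

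The NADPH oxidase, which makes superoxide in neutrophils, had 3 of 8 measured genes higher and 2 lower, or 4 higher and 1 lower after quantile normalization. CYBB, its catalytic membrane subunit, read 10.51, 10.58 and 10.53 in the untreated arrays and 12.08, 11.44 and 12.05 at 72 h, a change of 1.32 ± 0.28 (adjusted p = 0.0017). CYBA, the partner subunit, read 8.40, 8.43 and 8.22 in the untreated arrays and 9.47, 9.60 and 9.35 at 72 h, a change of 1.12 ± 0.11, and RAC2, the GTPase of the complex, rose by 0.61. HVCN1, the proton channel that supports the burst, read 9.27, 9.23 and 9.09 in the untreated arrays and 7.63, 7.78 and 7.17 at 72 h, a change of -1.67 ± 0.17. NCF4, a cytosolic subunit, fell by 0.79 (adjusted p = 0.00455), a call that ended after quantile normalization (-0.51, adjusted p = 0.0598).

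Receptors by which neutrophils sense and take up their targets rose more often than they fell. Of 13 measured chemoattractant receptors, 5 rose and 1 fell, or 4 higher and 2 lower after quantile normalization. CXCR2, the receptor for interleukin 8, read 5.60, 5.61 and 5.41 in the untreated arrays and 7.15, 7.38 and 7.21 at 72 h, a change of 1.71 ± 0.13. CCR1 rose by 1.42 and CXCR4, the bone marrow retention receptor, by 1.25. P2RY2, a nucleotide receptor, read 10.98, 10.98 and 10.86 in the untreated arrays and 8.68, 9.36 and 8.82 at 72 h, a change of -1.99 ± 0.16. Among 17 phagocytic receptors and their adaptors, 8 rose (47.1% against 18.2% of all genes) and 1 fell. ITGAM, the integrin chain CD11b used as the standard marker of NB4 maturation, read 8.04, 8.10 and 7.95 in the untreated arrays and 9.47, 9.26 and 9.43 at 72 h, a change of 1.36 ± 0.17. Its partner ITGB2 rose by 1.24 and the CD11c chain ITGAX by 1.51. MERTK, a receptor for dying cells, read 6.84, 6.59 and 6.57 in the untreated arrays and 9.90, 8.27 and 9.23 at 72 h, a change of 2.47 ± 0.46, uneven between the treated arrays. FCGR2A, a low-affinity IgG receptor, fell, from 7.47, 7.42 and 7.50 to 6.22, 4.99 and 5.54, a change of -1.88 ± 0.45.

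Toll-like receptor signalling was balanced, with 4 of 20 genes higher and 4 lower, shares near the background. After quantile normalization 4 were higher and 2 lower. IRAK3, an inhibitor of the pathway, fell by 1.41 and IRAK1, its kinase, rose by 0.75. TLR3, the double-stranded RNA sensor, rose by 1.12 (adjusted p = 0.015) and MYD88, the shared adaptor, fell by 0.84 (adjusted p = 0.00559). The TLR3 call ended without replicate 1 at 72 h (1.02, adjusted p = 0.0544), and the MYD88 call after quantile normalization (-0.57, adjusted p = 0.0588). The 11 measured genes of leukotriene and prostanoid synthesis include ALOX5AP. Among them 5 rose and 2 fell, or 4 and 1 after quantile normalization. PTGS1, cyclooxygenase 1, read 7.73, 7.51 and 7.41 in the untreated arrays and 9.52, 8.88 and 9.53 at 72 h, a change of 1.76 ± 0.31. PLA2G4A, the phospholipase that frees arachidonic acid, fell by 1.19. PTGES, prostaglandin E synthase, rose by 1.62, and without replicate 1 at 72 h by 1.20 (adjusted p = 0.0551).

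Among Src-family and other myeloid kinases 6 of 13 rose and 2 fell, the same counts as after quantile normalization. Beside FGR, CSK, the kinase that restrains the Src family, read 9.23, 9.28 and 9.16 in the untreated arrays and 10.11, 10.12 and 10.10 at 72 h, a change of 0.89 ± 0.08, PTK2B, a focal adhesion kinase, rose by 0.97, and FYN fell by 1.16. Actin and adhesion genes numbered 29, of which 6 rose and 9 fell, or 8 higher and 9 lower after quantile normalization. The list's median level lay in bin 10, where 25.4% of all genes were higher and 32.8% lower after quantile normalization. MYO1F, a myosin of leukocytes, rose by 1.24 and ACTN1, the actin crosslinker, fell by 1.14. PXN, the adhesion scaffold paxillin, rose by 1.59 on the named probe set but had 0.23 on its other one (adjusted p = 0.324). Nuclear envelope genes, which change as neutrophil nuclei lobulate, had 2 of 11 higher and 6 lower, or 2 and 3 after quantile normalization. LBR, the lamin B receptor needed for lobulation, read 10.37, 10.48 and 10.50 in the untreated arrays and 11.40, 11.47 and 11.38 at 72 h, a change of 0.97 ± 0.13. LMNA, the A-type lamin, read 8.40, 8.36 and 8.30 in the untreated arrays and 6.49, 7.48 and 7.24 at 72 h, a change of -1.28 ± 0.20, and EMD, emerin, fell by 0.77. LMNB2 fell by 0.76, a call that ended after quantile normalization (-0.50, adjusted p = 0.0750).

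Of 31 chemokines and cytokines, 6 rose (19.4% against 18.2% of all genes) and 5 fell (16.1% against 23.5%), or 4 and 4 after quantile normalization. The share that rose was thus near the background and the share that fell below it. CCL2, a chemokine for monocytes, read 8.53, 8.57 and 8.63 in the untreated arrays and 11.08, 10.66 and 10.53 at 72 h, a change of 2.18 ± 0.22. TNF, the inflammatory cytokine, read 9.19, 9.27 and 9.02 in the untreated arrays and 6.42, 7.10 and 6.51 at 72 h, a change of -2.48 ± 0.21, on 3 probe sets of identical values. IL1RN, the interleukin 1 antagonist, fell by 1.16 and CCL5 by 1.05. CXCL8, interleukin 8, had a change of 0.90 and IL1B one of 0.22; neither passed the test.

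Interferon response genes rose in part. Of 30 measured, 11 were higher (36.7% against 18.2% of all genes) and 2 lower, with a median change of 0.50; after quantile normalization the counts were 11 and 1. TRIM22, an antiviral ubiquitin ligase, read 5.05, 4.84 and 4.82 in the untreated arrays and 7.13, 6.31 and 7.11 at 72 h, a change of 1.95 ± 0.40 (adjusted p = 0.00123). OAS3, a synthetase that activates RNase L, read 6.18, 6.24 and 5.98 in the untreated arrays and 8.19, 7.44 and 7.81 at 72 h, a change of 1.68 ± 0.40 (adjusted p = 0.00332). IFI35 read 6.13, 6.06 and 6.19 in the untreated arrays and 7.71, 7.71 and 7.75 at 72 h, a change of 1.60 ± 0.22. The treated arrays of IFI35 lay within 0.1 log2 units of each other, whereas those of TRIM22 and OAS3 were lowest in replicate 2. IFIT5, an RNA-binding effector, rose by 1.44 (adjusted p = 0.0175), a call that ended when untreated replicate 2, 72 h replicate 1 or 72 h replicate 3 was left out (adjusted p 0.0533 to 0.0797). HERC5, the ligase that attaches ISG15, fell by 1.38 and IFITM1 by 0.79. ISG15 (0.14), IFIT1 (-0.20), IFIT3 (0.15) and MX2 (-0.14), classical members of the response, did not pass the test.

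Genes of antigen presentation rose in most cases. Of 16 genes, 11 rose (68.8%) and 0 fell, the list median being 0.67, and the counts were the same after quantile normalization. PSMB8, a second catalytic subunit of the immunoproteasome, read 6.90, 6.99 and 6.65 in the untreated arrays and 9.94, 10.05 and 9.79 at 72 h, a change of 3.08 ± 0.12. TAP1, the peptide transporter, read 7.22, 7.28 and 7.27 in the untreated arrays and 8.65, 8.03 and 8.58 at 72 h, a change of 1.16 ± 0.19, its partner TAP2 rose by 0.77, and ERAP2, a trimming peptidase, rose by 1.41. B2M, the light chain of class I molecules, rose by 0.92. PSME1 (0.19) and PSME2 (-0.49), the proteasome activator subunits, and NLRC5 (-0.12), the class I transactivator, did not pass the test.

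Promoters of both groups are shown because these groups share a letter pattern. The interferon response pattern GAAANNGAAA, searched on both strands of the 250 bases before the start, was in 13 of 23 promoters of interferon response genes (56.5%) and in 6 of 14 of antigen presentation genes (42.9%), against 2.57% of all 14239 promoters. It was in 6.62% of 302 promoters of genes called at least 2-fold higher and in 1.88% of 1172 of those at least 2-fold lower. OAS3 and TAP1 were named above, and IFI6, which rose by 1.04, was picked for its 3 matches after its values were seen. Matches are in capitals and may overlap, and in TAP1 they lie on the other strand. The stretches run from 40 bases before the first match to the start (GRCh38.p14, chr12:112938291-112938473, plus strand; chr1:27672193-27672388, minus strand; chr6:32853705-32853878, minus strand).
OAS3 promoter: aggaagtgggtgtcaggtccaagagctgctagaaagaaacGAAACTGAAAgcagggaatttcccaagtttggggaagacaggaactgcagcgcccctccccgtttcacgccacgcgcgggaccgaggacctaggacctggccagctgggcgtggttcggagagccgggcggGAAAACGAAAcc
IFI6 promoter: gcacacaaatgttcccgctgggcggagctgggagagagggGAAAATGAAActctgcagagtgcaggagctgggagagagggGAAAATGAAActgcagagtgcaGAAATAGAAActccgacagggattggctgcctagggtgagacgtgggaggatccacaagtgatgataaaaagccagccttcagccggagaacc
TAP1 promoter: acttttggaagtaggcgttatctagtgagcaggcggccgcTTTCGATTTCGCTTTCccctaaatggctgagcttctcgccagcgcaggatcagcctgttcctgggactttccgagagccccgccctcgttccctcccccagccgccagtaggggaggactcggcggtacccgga

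Genes of cell division fell in most cases. Of 28 mitosis genes, 21 were lower (75% against 23.5% of all genes) and 0 higher, with a median change of -0.89. Quantile normalization gave 18 lower and 2 higher. The median level of this list lay in bin 9. There 46% of all genes were lower with the deposited values and 29.4% after quantile normalization. KIF20A, a motor of the dividing cell's midzone, read 10.0, 9.98 and 9.91 in the untreated arrays and 7.46, 8.83 and 7.91 at 72 h, a change of -1.90 ± 0.30 (adjusted p = 0.00012). CENPF, a kinetochore protein, read 9.76, 9.72 and 9.75 in the untreated arrays and 7.60, 8.80 and 8.27 at 72 h, a change of -1.52 ± 0.24. CENPE, the kinetochore motor, read 8.23, 8.21 and 8.29 in the untreated arrays and 6.66, 6.92 and 6.64 at 72 h, a change of -1.50 ± 0.15. Replicate 2 was the highest treated array for each and still below every untreated one. CDK1, the mitotic kinase, fell by 1.32, MKI67, the Ki-67 antigen, by 0.81, and NUSAP1, a spindle protein, by 1.40. CCNB1 (0.07), AURKB (-0.08) and UBE2C (-0.07) did not pass the test.

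DNA replication genes fell in 14 of 28 cases (50%) and rose in 1, with a median of -0.59. The median level of this list lay in bin 9, where 46% of all genes were lower with the deposited values. After quantile normalization 11 fell and 2 rose. Without replicate 2 at 72 h, 21 fell and the median was -0.77. GINS2, of the replicative helicase, read 10.80, 10.68 and 10.73 in the untreated arrays and 7.82, 8.66 and 7.90 at 72 h, a change of -2.61 ± 0.26. POLE2, a polymerase epsilon subunit, read 8.74, 8.78 and 8.79 in the untreated arrays and 6.29, 7.57 and 6.17 at 72 h, a change of -2.09 ± 0.30. DTL fell by 1.28 and MCM10, which helps to start the helicase, by 1.24. Of 22 G1 cyclins, E2F factors and inhibitors, 13 fell (59.1%) and 3 rose, or 5 higher and 10 lower after quantile normalization. For these the median level lay in bin 8, where 42.1% of all genes were lower with the deposited values. CCNE2, cyclin E2, read 8.26, 8.39 and 8.34 in the untreated arrays and 6.17, 6.26 and 5.35 at 72 h, a change of -2.40 ± 0.25. CCND3, cyclin D3, fell by 1.38 and E2F8 by 1.59, whereas CDKN2D, the inhibitor p19, read 7.37, 7.28 and 7.19 in the untreated arrays and 8.67, 8.46 and 8.49 at 72 h, a change of 1.26 ± 0.12.

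Mitotic promoters are shown for CCAAT boxes and the cell cycle homology element, written here as TTTGAA. On either strand of the 250 bases, TTTGAA was in 12 of 23 mitosis promoters (52.2%) against 10.6% of all, and CCAAT in 19 of 23 (82.6%) against 34.4%. Genes at least 2-fold lower as a whole had TTTGAA in 11% and CCAAT in 38.1%. KIF20A was named above and holds CCAAT on the other strand, read as ATTGG, with no TTTGAA in this window. PLK1, a mitotic kinase that fell by 0.97, and CCNB2, cyclin B2, which fell by 0.66, were picked for holding both patterns after their values were seen. Matches to either pattern are in capitals (GRCh38.p14, chr5:138178978-138179111, plus strand; chr16:23678776-23678888, plus strand; chr15:59104896-59105145, plus strand).
KIF20A promoter: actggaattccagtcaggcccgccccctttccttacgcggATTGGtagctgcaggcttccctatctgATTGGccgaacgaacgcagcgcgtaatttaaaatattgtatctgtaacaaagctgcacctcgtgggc
PLK1 promoter: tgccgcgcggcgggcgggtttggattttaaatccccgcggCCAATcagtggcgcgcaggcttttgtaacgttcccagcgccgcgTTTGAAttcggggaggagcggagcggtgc
CCNB2 promoter: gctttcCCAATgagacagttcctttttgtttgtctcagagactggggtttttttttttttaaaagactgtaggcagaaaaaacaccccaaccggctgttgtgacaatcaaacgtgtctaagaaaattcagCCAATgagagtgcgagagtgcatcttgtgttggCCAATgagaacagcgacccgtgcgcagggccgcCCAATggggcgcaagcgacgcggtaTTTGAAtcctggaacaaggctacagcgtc

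**Figure D3:**
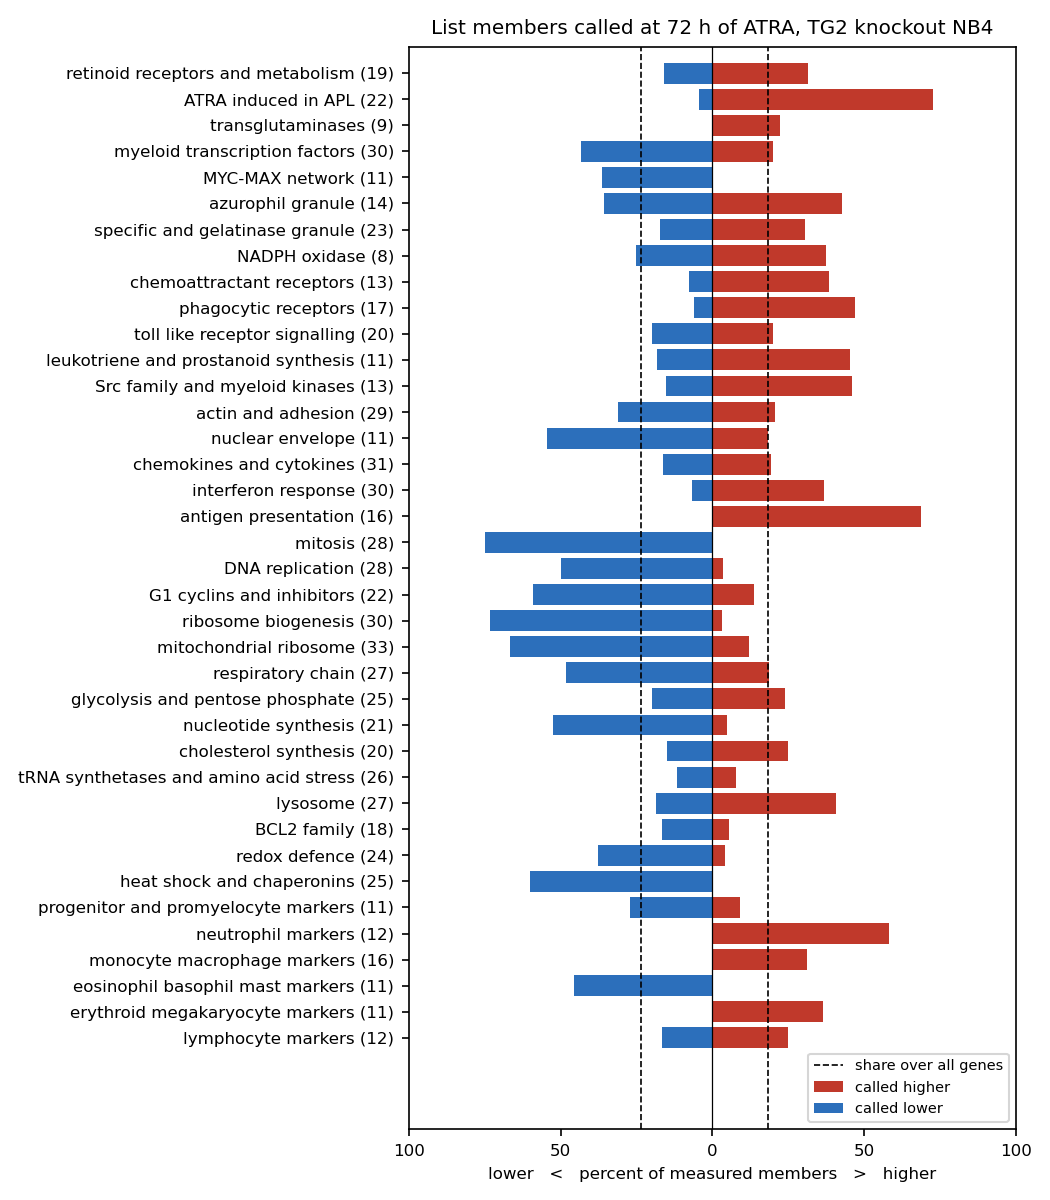
Percent of measured members called higher (red, to the right) or lower (blue, to the left) at 72 h for each of 38 gene groups, y axis, with the number of measured members in brackets and dashed lines at the shares over all 18417 genes (18.2% and 23.5%). ATRA-induced and antigen presentation genes reach furthest to the right (72.7% and 68.8%), and mitosis and ribosome biogenesis genes furthest to the left (75% and 73.3%).

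Genes that build the machinery of protein synthesis fell in most cases with the deposited values. Of 30 ribosome biogenesis genes, 22 fell (73.3%) and 1 rose, the list median being -0.61, and quantile normalization gave 14 lower with a median of -0.34. POLR1B, a core subunit of RNA polymerase I, read 9.75, 9.70 and 9.73 in the untreated arrays and 7.86, 8.36 and 7.98 at 72 h, a change of -1.66 ± 0.18. UTP15 and UTP20, of small subunit assembly, fell by 1.63 and 1.68, and POLR1A by 1.20. Mitochondrial ribosome genes fell in 22 of 33 cases and rose in 4, or 16 and 5 after quantile normalization. MRPL35 read 9.90, 9.91 and 9.96 in the untreated arrays and 7.18, 8.51 and 7.78 at 72 h, a change of -2.10 ± 0.28. MRPS2 fell by 1.67, MRPL13 by 1.59 and MRPL20 by 1.38. The median level of both groups lay in bin 9 of the genes by level, where 46% of all genes were lower with the deposited values. After quantile normalization 29.4% of all genes in that bin were lower.

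Respiratory chain genes had 13 of 27 lower (48.1%) and 5 higher, but 11 lower and 10 higher after quantile normalization. The list's median level lay in bin 10, where 44.8% of all genes were lower with the deposited values. COX5B, of cytochrome c oxidase, read 10.87, 10.81 and 10.91 in the untreated arrays and 8.32, 8.71 and 8.33 at 72 h, a change of -2.41 ± 0.17. NDUFA2, of complex I, read 9.82, 9.80 and 9.79 in the untreated arrays and 7.86, 8.87 and 7.48 at 72 h, a change of -1.73 ± 0.38. NDUFV2 fell by 0.99 and SDHC, of complex II, by 0.91. In glycolysis and the pentose phosphate path 6 of 25 rose (24% against 18.2% of all genes) and 5 fell (20% against 23.5%). After quantile normalization 8 were higher and 3 lower. The median level of this list also lay in bin 10. There 15.2% of all genes were higher and 44.8% lower with the deposited values, and 25.4% and 32.8% after quantile normalization. HK3, the myeloid hexokinase, read 5.61, 5.34 and 5.81 in the untreated arrays and 7.83, 7.43 and 7.48 at 72 h, a change of 1.99 ± 0.16. PFKFB4 rose by 1.46 and ALDOC by 1.07, and TALDO1, transaldolase, fell by 0.93.

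Nucleotide synthesis fell in 11 of 21 genes (52.4%) and rose in 1, or 2 higher and 8 lower after quantile normalization. The list's median level lay in bin 9, where 46% of all genes were lower with the deposited values. PRPS2, which makes the sugar phosphate donor, read 10.07, 10.03 and 10.03 in the untreated arrays and 7.99, 8.75 and 8.14 at 72 h, a change of -1.75 ± 0.29, and TYMS, thymidylate synthase, PPAT and GMPS, of purine synthesis, fell by 1.10, 1.04 and 1.00. Cholesterol genes were split, with 5 of 20 higher (25% against 18.2% of all genes) and 3 lower (15% against 23.5%). After quantile normalization 8 were higher and 3 lower. Their median level also lay in bin 9. There 12.2% of all genes were higher with the deposited values, and 22.5% were higher and 29.4% lower after quantile normalization. ABCA1, the cholesterol exporter, read 6.48, 6.53 and 6.63 in the untreated arrays and 9.38, 7.60 and 8.42 at 72 h, a change of 1.92 ± 0.39. SREBF1, the lipid synthesis regulator, rose by 1.53. The synthesis enzymes depended on 1 array: MSMO1 read 7.02, 8.98 and 7.59 at 72 h against 9.11, 9.11 and 9.26 untreated and NSDHL read 8.03, 9.26 and 8.30 against 9.65, 9.59 and 9.66, with replicate 2 close to the untreated arrays in both. MSMO1 fell by 1.30, which was no longer called without replicate 1 at 72 h (-0.88, adjusted p = 0.0601). Without replicate 2, 7 of the 20 fell, 4 rose, and the list median went from 0.14 to -0.16.

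Few aminoacyl-tRNA synthetases and amino acid stress genes were called, with 2 of 26 higher and 3 lower, below both background shares; quantile normalization, or leaving out replicate 2 at 72 h, raised the number that rose to 6. HARS1, for histidine, read 10.81, 10.80 and 10.59 in the untreated arrays and 9.03, 9.44 and 9.0 at 72 h, a change of -1.58 ± 0.16, while TARS1, for threonine, rose by 0.80. RARS1 and KARS1 fell by 0.60 and 0.41, calls that ended after quantile normalization (-0.36 and -0.20, adjusted p = 0.129 and 0.0949). The RARS1 call also ended without untreated replicate 1, 72 h replicate 1 or 72 h replicate 3 (adjusted p 0.0595 to 0.0842). Of 27 lysosome genes 11 rose and 5 fell, or 13 higher and 4 lower after quantile normalization. CTSD, cathepsin D, read 10.32, 10.37 and 10.27 in the untreated arrays and 12.10, 11.64 and 11.90 at 72 h, a change of 1.56 ± 0.15. CTSS, cathepsin S, rose by 1.62 and GUSB, a glucuronidase, by 1.51, whereas CTSH, cathepsin H, read 10.15, 10.03 and 9.98 in the untreated arrays and 8.06, 7.92 and 7.87 at 72 h, a change of -2.10 ± 0.19.

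In the BCL2 family, which sets the threshold for cell death, 3 of 18 fell (16.7% against 23.5% of all genes). Only 1 rose (5.6% against 18.2%), so both shares were below the background. The median change was 0.06, and quantile normalization gave 4 higher and 2 lower. BCL2, the survival factor, read 8.32, 8.23 and 8.34 in the untreated arrays and 6.46, 6.22 and 6.15 at 72 h, a change of -2.02 ± 0.12. BID, a death-promoting member, read 9.84, 10.14 and 10.10 in the untreated arrays and 8.67, 8.53 and 8.35 at 72 h, a change of -1.51 ± 0.11. BNIP3L fell by 0.83 and HRK rose by 0.43 (adjusted p = 0.0146 and 0.0251). The BNIP3L call ended after quantile normalization (adjusted p = 0.113) and without untreated replicate 1 or 72 h replicate 1 (adjusted p = 0.0555 and 0.0546), and the HRK call ended when either untreated replicate 1 or 2, or 72 h replicate 1 or 3, was left out (adjusted p 0.0652 to 0.0766). MCL1 (-0.00), BCL2L1 (0.29), BAX (0.11) and BCL2A1 (0.55) did not pass the test.

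Redox defence genes fell in 9 of 24 cases (37.5%) and rose in 1, or 3 higher and 8 lower after quantile normalization. The share that fell was below the 44.8% of all genes in bin 10, where the list's median level lay. Beside NQO1, MGST1, a microsomal glutathione transferase, read 10.56, 10.44 and 10.64 in the untreated arrays and 7.99, 8.96 and 8.37 at 72 h, a change of -2.11 ± 0.34. PRDX1, a peroxidase, read 10.71, 10.79 and 10.72 in the untreated arrays and 8.64, 10.28 and 8.88 at 72 h, a change of -1.47 ± 0.41, with replicate 2 far above the other treated arrays; without replicate 1 it was -1.16 (adjusted p = 0.0522). GPX1, glutathione peroxidase, fell by 1.06 on the named probe set and had -0.08 on its other one (adjusted p = 0.573). Heat shock and chaperonin genes fell in 15 of 25 cases (60% against 23.5% of all genes) and rose in 0. After quantile normalization 10 were lower, and without replicate 2 at 72 h 20 were. The median level of this list also lay in bin 10. There 44.8% of all genes were lower with the deposited values and 32.8% after quantile normalization. DNAJC2, a ribosome-bound chaperone, read 9.20, 9.18 and 9.14 in the untreated arrays and 7.41, 8.06 and 7.92 at 72 h, a change of -1.38 ± 0.15. DNAJB1 fell by 0.94, HSPH1 by 1.07 and HSPE1 by 0.96; without replicate 1 at 72 h the HSPH1 and HSPE1 calls ended (adjusted p = 0.0563 and 0.0690), and that of HSPE1 also without untreated replicate 2 or 72 h replicate 3 and after quantile normalization (adjusted p 0.0547 to 0.0728).

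Marker genes of blood cell types checked the label of the line and what else the RNA could hold. In bulk RNA, fewer cells of a type and less of its RNA per cell cannot be told apart. Progenitor and promyelocyte markers gave 1 of 11 higher (9.1% against 18.2% of all genes) and 3 lower (27.3% against 23.5%). The share that fell was thus near the background, the median change was -0.033, and 7 were not called. The mean log2 signal over the list was 7.24 to 7.29 untreated and 6.83 to 7.04 at 72 h. ANPEP, the surface peptidase CD13, read 11.64, 11.64 and 11.55 in the untreated arrays and 9.19, 9.98 and 9.59 at 72 h, a change of -2.02 ± 0.21. WT1, a transcription factor of leukaemic progenitors, read 9.68, 9.46 and 9.52 in the untreated arrays and 7.72, 8.06 and 7.88 at 72 h, a change of -1.67 ± 0.20. MPO stayed bright throughout, at 12.08 or more in every array. PROM1 rose by 0.55 from an untreated mean of 3.43, a call that ended after quantile normalization (0.15, adjusted p = 0.518) and without untreated replicate 2 or 72 h replicate 3 (adjusted p = 0.0532 and 0.0553).

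Neutrophil markers rose in 7 of 12 cases (58.3% against 18.2% of all genes) and fell in 0, with a list mean of 5.92 to 5.98 untreated and 6.68 to 7.10 at 72 h. CSF3R, the receptor for granulocyte colony-stimulating factor, read 8.08, 8.05 and 8.04 in the untreated arrays and 10.21, 9.17 and 9.94 at 72 h, a change of 1.72 ± 0.21. S100A9 rose by 1.27, S100A12 by 0.92 and MME, the surface peptidase CD10, by 0.73. ALPL (0.05), CEACAM8 and CD177 (-0.17), markers of late neutrophils, did not pass the test.

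Monocyte and macrophage markers rose in 5 of 16 cases (31.25% against 18.2% of all genes), each by less than 2-fold. The list mean was 5.83 to 5.95 untreated and 6.13 to 6.28 treated. CD14, the monocyte endotoxin coreceptor, read 5.53, 5.71 and 5.95 in the untreated arrays and 6.18, 6.37 and 6.18 at 72 h, a change of 0.51 ± 0.14. MARCO rose by 0.65, CD1C by 0.54 and CD68 by 0.47 (adjusted p = 0.0449), and each of these 4 calls ended when untreated replicate 1 was left out (adjusted p 0.0507 to 0.104). The CD1C call also ended without 72 h replicate 1 (adjusted p = 0.0803) and after quantile normalization (adjusted p = 0.0532), and the CD68 call without any single array other than 72 h replicate 2 (adjusted p up to 0.129). Eosinophil, basophil and mast cell markers fell in 5 of 11 cases (45.5% against 23.5% of all genes) and rose in 0. The list mean was 6.79 to 6.82 untreated and 5.83 to 6.19 at 72 h, while the median change was 0.10. EPX, eosinophil peroxidase, read 8.18, 8.23 and 7.97 in the untreated arrays and 6.02, 6.43 and 6.61 at 72 h, a change of -1.77 ± 0.16, joining PRG2 and HDC. RNASE2 fell by 1.55, with replicate 2 near the untreated arrays, at 8.73, 10.59 and 9.43 against 10.96, 11.12 and 11.33; without replicate 1 the call ended (adjusted p = 0.0589).

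Erythroid and megakaryocyte markers rose in 4 of 11 cases, from a list mean of 5.47 to 5.56 to one of 5.75 to 5.93, with 2 after quantile normalization. AHSP, a globin chaperone, rose by 0.88, from 4.21, 4.18 and 4.32 to 4.83, 5.23 and 5.30. PF4 (0.69) and ITGA2B (0.33), platelet genes, were called with the deposited values and not after quantile normalization. The PF4 call also ended without untreated replicate 3, 72 h replicate 1 or 72 h replicate 3 (adjusted p 0.0669 to 0.0992), and the ITGA2B call without untreated replicate 2 or 3 or 72 h replicate 1 or 2 (adjusted p 0.0647 to 0.138). Lymphocyte markers rose in 3 of 12 cases and fell in 2. IL7R, the interleukin 7 receptor, rose by 0.80 from an untreated mean of 3.93, NKG7, a cytotoxic granule gene, by 0.70, CD79A by 0.62, and its partner CD79B fell by 0.77. The median level of both these groups lay in bin 3 of the genes by level, where 18.4% of all genes were higher with the deposited values and 8.8% after quantile normalization, and the part of the narrower treated arrays in these rises was not tested.

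The 3 treated arrays were then set beside each other group by group. Replicate 2 had the smallest fall in the mitosis, DNA replication, ribosome biogenesis and heat shock lists. Over the DNA replication list the median was -0.76 in replicate 1, -0.15 in replicate 2 and -0.85 in replicate 3. Over the cholesterol list it was -0.25, 0.60 and -0.02. In the ATRA-induced list the arrays were closer, at 1.56, 1.37 and 1.42. Of the 70 named probe sets called higher, replicate 2 was the lowest treated array in 45, and of the 88 called lower it was the highest in 64. Over all genes called, those shares were 45.9% and 57.1%.

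**Figure D4:**
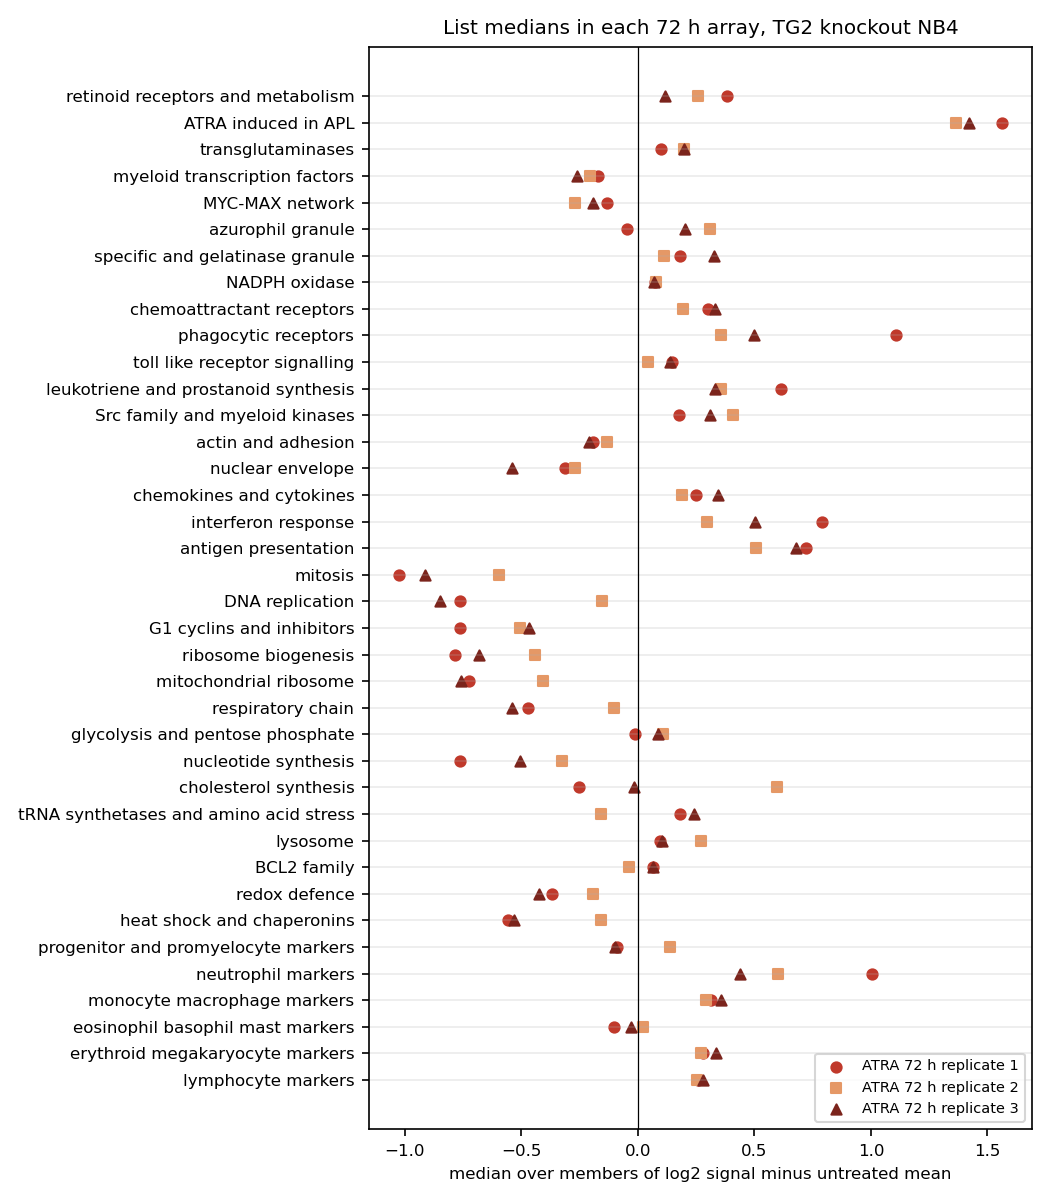
Median over list members of the log2 signal in each 72 h array minus the untreated mean, x axis, for each of the 38 gene groups, y axis. The 3 arrays agree closely for ATRA-induced genes (1.37 to 1.56), and replicate 2 (squares) lies apart for DNA replication (-0.15) and cholesterol synthesis (0.60).

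The 72 h arrays were next compared directly with the 48 h arrays of the same line. No probe set was called (0 of 33297, 0%, limma; 2732 had an unadjusted p under 0.05, and the smallest adjusted p was 0.0761). Without replicate 2 at 72 h, 14 probe sets were called, among them EPCAM, an epithelial adhesion molecule, at -1.48 (adjusted p = 0.00644), and 11 of the 14 were annotated to no single gene. Leaving out 48 h replicate 2 or 3 gave 1 and 2 calls. The nearest to a call among single genes were ZNF587 (1.06 ± 0.19, adjusted p = 0.128) and LRRC39 (0.94 ± 0.21, adjusted p = 0.261) on the higher side. On the lower side they were ZNF675 (-0.95 ± 0.18, adjusted p = 0.172) and H1-10-AS1 (-0.52 ± 0.11, adjusted p = 0.261). The changes at 48 h and 72 h share their untreated arrays, so they are only set side by side: BPI had 4.77 and 5.17, TGM2 4.56 and 4.85, LAMB3 2.54 and 3.45, CYTL1 -4.80 and -4.96, CYP1B1 -3.80 and -3.04, and KIF20A -1.42 and -1.90.

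The 72 h response of this line was finally tested against that of wild-type NB4 over its own untreated arrays. No probe set was called for the difference in response (0 of 33297, 0%, limma; 1553 had an unadjusted p under 0.05, and the smallest adjusted p was 0.0964). Leaving out untreated replicate 2 or 72 h replicate 2 of the line labelled knockout, or 72 h replicate 2 of wild type, gave 1 call each; the second of these was ACSS2, an acetyl-CoA synthetase, at -1.37 (adjusted p = 0.0460). The smallest p-values among single genes belonged to RAB27B, a GTPase of granule secretion, which read 8.16, 8.20 and 8.28 in the untreated arrays and 6.89, 6.81 and 6.48 at 72 h, a change of -1.49 ± 0.16 against -2.78 ± 0.16 in wild type (difference 1.29 ± 0.22, adjusted p = 0.253). LGALS3BP, a secreted galectin-binding protein, read 9.11, 8.97 and 8.91 in the untreated arrays and 10.09, 10.28 and 10.05 at 72 h, a change of 1.14 ± 0.12 against 2.11 ± 0.12 (difference -0.97 ± 0.17, adjusted p = 0.315). CCL24 rose by 3.17 ± 0.22 against 4.56 ± 0.22 (difference -1.40 ± 0.32, adjusted p = 0.98). RPF2, of ribosome assembly, had a difference of 0.77 ± 0.15 (adjusted p = 0.649) on a probe set that did not change in this line (0.06, adjusted p = 0.694), while its other probe set fell by 0.98.

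Some of the 38 gene groups were set side by side in the 2 lines without a test of the group. Over all 18417 genes, 3618 were called higher and 4488 lower in wild type, against 3355 and 4319 here. Interferon response genes were higher in 11 of 30 cases here and in 23 in wild type, with median changes of 0.50 and 1.20. Their median difference in response was -0.75 against 0 over all genes, and 7 of 30 had an unadjusted p under 0.05 against 4.4% of all genes, but none passed adjustment. OAS3 rose by 1.68 ± 0.40 here and 3.18 ± 0.40 in wild type (difference -1.50 ± 0.56, adjusted p = 1), and IFIT5 by 1.44 ± 0.45 and 2.80 ± 0.45 (difference -1.36 ± 0.63, adjusted p = 1). Phagocytic receptors had medians of 0.54 and 1.04, and ITGAM within them rose by 1.36 ± 0.17 and 2.32 ± 0.17 (difference -0.97 ± 0.25, adjusted p = 0.98). Neutrophil markers, ITGAM among them, went the other way by count and median change. Of 12, 7 were higher here and 5 in wild type, with medians of 0.83 and 0.47, though their median difference in response was -0.16. Chemokines and cytokines rose in 6 and 13 of 31 cases. Ribosome biogenesis genes fell in 22 and 26 of 30, with medians of -0.61 and -0.92. Mitosis genes gave the same median in both lines, -0.89 and -0.89, and antigen presentation genes had 0.67 and 0.53. A count past the threshold in 1 line and not in the other is not a test of the difference, and no single gene's difference passed one.

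**Figure D5:**
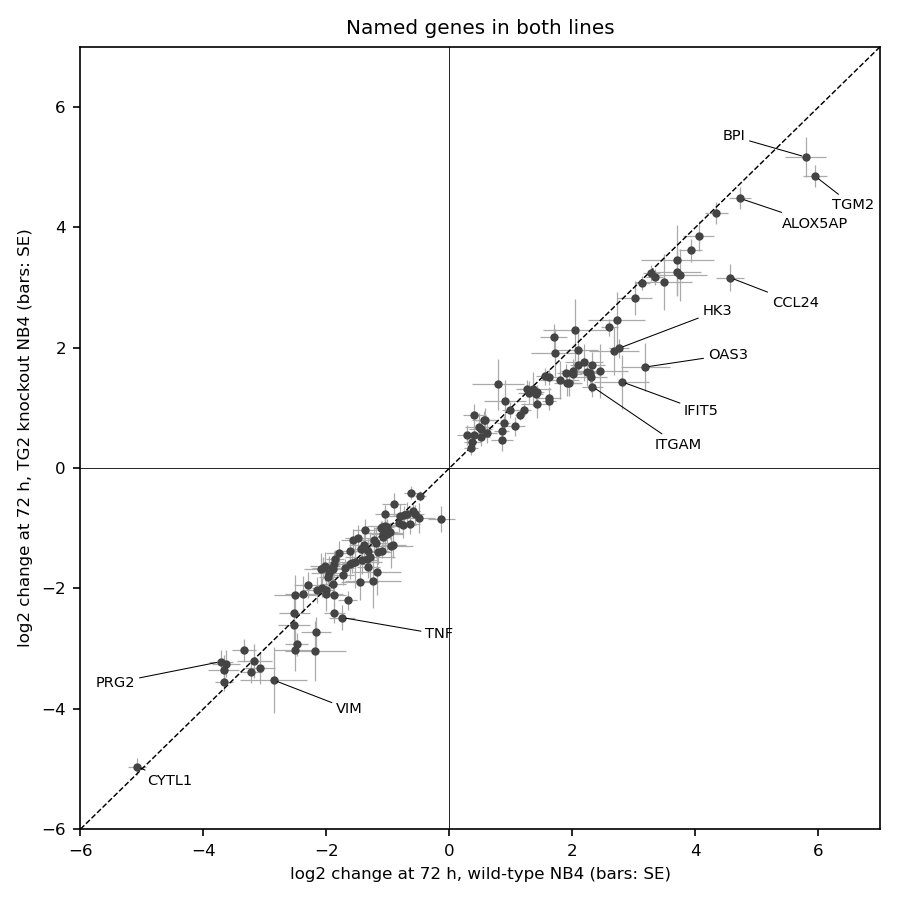
Log2 change at 72 h over untreated in wild-type NB4, x axis, and in the line labelled TG2 knockout, y axis, for the named genes, with SE bars and a dashed line of equal change. TGM2 (5.95 and 4.85), CCL24 (4.56 and 3.17), OAS3 (3.18 and 1.68) and ITGAM (2.32 and 1.36) lie below the line, and none of these differences passed adjustment over all probe sets.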

How the data were processed

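Affymetrix whole-transcript arrays of 18 NB4 RNA samples were read from the authors' deposited table of log2 values, 33297 probe sets by 18 arrays, from 0.73 to 13.56. How the deposited log2 values were normalized and summarized, not given in the sources used here, stays unknown. Array medians lay between 6.12 and 6.26, which leaves the centring unknown. The number of arrays limits the precision. Groups came from the sample titles. Genes came from the platform annotation: 19460 probe sets had 1 gene, 1754 several and 12083 none, and a gene with several was given by the brightest.

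Group means were fitted to all 18 arrays in R 4.3.3 with limma 3.58.1 (lmFit, then eBayes with a trend), two-sided, adjusted by Benjamini-Hochberg over all probe sets, and called at an adjusted p under 0.05. The 72 h response difference between lines was an interaction contrast. The fit was tested on simulated data. Lists are described by counts and medians with no set test; 734 of 805 list genes were measured. Genes were named by rule: TGM2, the 12 highest and 12 lowest called single-gene probe sets without overlap (unnamed and small RNA genes passed over), up to 4 called members of largest change a list, and the 2 of smallest p in each direction for the other comparisons. Further list members are quoted with their values and were picked after those were seen. The lists and the rule were chosen with earlier results of these data known. Alternatives were other scalings, filters, variance models, a replicate block and leaving out each array. Same-numbered untreated and 72 h arrays did not deviate together (r = 0.0159 to 0.0301 across probe sets), so no pairing was used. Promoters are RefSeq's (GRCh38.p14), the first listed start of each gene, found for 587 of 734 list genes.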

Additional observations from a re-analysis of the deposited data

How the results depend on the processing

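The rise of TGM2 and the changes of 137 of 161 named genes kept direction and call under every alternative run, and 0 reversed; the calls of the other 24 ended under at least 1, most often without 72 h replicate 1 (17 genes) or after quantile normalization (11). Calls fell from 13996 to 8830 with the brighter probe sets alone (3316 higher, 2663 at least 2-fold, of 4603) and to 8454 with single-gene probe sets (3799 higher, 2056 at least 2-fold), since fewer were tested. Of all calls, 54.3% were higher; that was 37.6% in the brighter probe sets, 44.9% in single-gene ones and 51.0% after quantile normalization, which kept 67.4% of the calls. The median change over probe sets was 0.13, 0.08 after centring each array and 0.05 after quantile normalization. For 72 h against 48 h, calls numbered 3 without the eBayes trend and 0 to 14 with an array left out. For the response difference they numbered 3 with the compared arrays alone and 0 to 1 with an array left out. With the replicate number as a block, the 72 h calls were 14385, and 13112 with the compared arrays alone; the block left both other comparisons at 0, except for 2 calls of the response difference with the compared arrays alone. Of the calls without it, 97.8% were also called with the block over all arrays and 84.5% with the block and the compared arrays alone. The block over all arrays ended no call of a named gene. With the compared arrays alone, the call of ITGA2B ended without the block (adjusted p = 0.0831) and with it (0.0906), and those of PROM1, CD1C and PF4 ended only with the block (adjusted p 0.0674 to 0.0741). List medians changed sign for retinoid genes (-0.023, brighter probe sets), Toll-like receptor signalling (-0.28, brighter; -0.044, quantile), the nuclear envelope (0.08, mean of all probe sets of a gene) and eosinophil markers (-1.77, brighter; -0.19, quantile). Without 72 h replicate 2 the median also changed sign for cholesterol synthesis (0.14 to -0.16) and glycolysis (0.05 to -0.01), and for progenitor markers (-0.033) it was 0.025 to 0.033 without untreated replicate 2, 72 h replicate 1 or 72 h replicate 3. The causes were not tested.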

Other observations

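Probe sets without a gene behaved differently from those of 1 gene. Of 12083 probe sets annotated to no gene, 3572 were called higher at 72 h and 1469 lower, 1550 and 774 of them by at least 2-fold, with a median change of 0.28. Of 19460 probe sets annotated to 1 gene, 3559 were higher and 4558 lower, with 495 and 1551 by at least 2-fold and a median change of 0.07. The median log2 level was 5.18 without a gene and 6.66 with 1. Probe sets annotated to several genes numbered 1754, with 463 higher and 375 lower. Their part in the split of the calls was not tested further.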
